A study of Mus musculus with 3 samples.

Results

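The 37 genes of the mouse mitochondrial genome were examined in ALSCs, a primed pluripotent stem cell line labelled as embryonic stem cells. They were chosen as every row of the deposited count table whose chromosome is MT, and they are 37 of the 55421 named genes of the table. They comprise 13 mRNA genes, 2 rRNA genes, and 22 tRNA genes, and all 37 have the same position and strand in the GENCODE M21 annotation. The ALSCs came from epiblasts of embryonic day 6.5 embryos of a female ICR mouse mated with a GOF/GFP male, and were grown with Activin A and LIF. Polyadenylated RNA of 3 ALSC libraries (replicates 1, 2, and 3) was sequenced, with 18088505, 18724038, and 18037342 counts on named genes. Every library belongs to this 1 condition, so no difference between conditions was tested, and the values describe the level of each transcript and its spread between libraries. The labelled cell type was checked with marker genes. Of 6 pluripotency genes, *Pou5f1* had a mean of 647.8 FPKM (the count per kilobase of gene length, scaled to library size). *Dnmt3b* had 281.1 FPKM, *Nanog* 171.2 FPKM, and *Sox2* 119.2 FPKM, while *Otx2* had 5.08 FPKM and *Fgf5*, an epiblast gene, 3.89 FPKM. The fibroblast genes *Col3a1*, *Dcn*, *Lum*, and *Postn* had 0 to 3 counts in each library. Of 4 trophoblast genes, *Cdx2* and *Elf5* had 0 or 1 counts, *Tfap2c* had 0.829 FPKM, and *Ascl2* had 3.10 FPKM, close to *Fgf5*. The 4 endoderm genes ran from 0.0375 FPKM (*Gata4*) to 1.96 FPKM (*Foxa2*), and the 3 naive genes from 0.0774 FPKM (*Zfp42*) to 0.788 FPKM (*Esrrb*).

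Mitochondrial DNA is a small circle that is inherited from the mother. Both strands are transcribed as long precursors by the polymerase Polrmt with the factors Tfam and Tfb2m. The tRNAs lie between most of the other genes and are cut out of the precursor, which frees the mRNAs and rRNAs. The mRNAs encode subunits of respiratory complexes I, III, and IV and of ATP synthase, which are built together with subunits from the nucleus. Most mitochondrial mRNAs receive a short poly(A) tail, and some receive their stop codon only through it. Copies of mitochondrial DNA are also found in the nuclear genome, where they are annotated as pseudogenes.

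The first pair of sequences is shown because *mt-Nd3*, a complex I subunit, has an almost identical copy on chromosome 1, the pseudogene *Gm28438*. The 60 bases printed are the start of each on GRCm38, MT:9459-9518 on the plus strand and chr1:24613060-24613119 on the minus strand, and the capital marks the base that differs.
mt-Nd3: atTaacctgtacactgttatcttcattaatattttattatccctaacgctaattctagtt
Gm28438: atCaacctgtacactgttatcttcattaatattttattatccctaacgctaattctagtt
Counted from 1 at the start of the gene, the difference is T3C, with the base of *mt-Nd3* first. No other base differed over the 345 aligned bases.

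The second pair shows where the copied stretch begins, inside *mt-Co1*, the catalytic subunit of complex IV. The bases are MT:6381-6440 on the plus strand and chr1:24616138-24616197 on the minus strand, and capitals mark bases that differ between *mt-Co1* and the pseudogene *Gm29216*.
mt-Co1: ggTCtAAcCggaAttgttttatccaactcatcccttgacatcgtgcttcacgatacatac
Gm29216: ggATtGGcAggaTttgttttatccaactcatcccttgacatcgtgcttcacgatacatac
All 6 differences lie in the first 13 of these 60 bases, and the remaining 47 bases were identical. From MT:6390 to MT:11042, a stretch of 4653 bases, 7 annotated pseudogenes on the minus strand of chr1:24611535-24616197 follow the order of the mitochondrial genes. Over their 4140 aligned bases they held 2 mismatches, T3C in *mt-Nd3* and A1066T in *mt-Co1*. The stretch holds 6 mRNA genes completely (*mt-Co2*, *mt-Atp8*, *mt-Atp6*, *mt-Co3*, *mt-Nd3*, and *mt-Nd4l*) and 5 tRNA genes, and it covers part of *mt-Co1* and *mt-Nd4*. The bases between the pseudogenes, where the tRNA genes and most of *mt-Atp8* would lie, were not compared.

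Mitochondrial counts made up 1.36% of replicate 1 (Wilson 95% interval 1.35% to 1.36%), 1.19% in replicate 2 (1.18% to 1.19%), and 1.20% in replicate 3 (1.20% to 1.21%). These intervals cover counting error only. Of the mitochondrial counts, mRNAs held 95.5% ± 0.523 (SD, n = 3), rRNAs 3.76% ± 0.442, and tRNAs 0.726% ± 0.0805. The libraries were labelled as polyadenylated RNA, and these shares describe that fraction of the RNA.

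The 7 mRNAs and 2 rRNAs that lie outside the copied stretch or only partly in it had mean levels between 183.6 and 3980 FPKM. The 6 mRNAs that lie wholly in it had mean levels between 0.808 and 29.8 FPKM. With an effective length for fragments of 200 bases in place of the gene length, *mt-Nd3* moved to 12.7 FPKM and *mt-Nd4l* to 9.51 FPKM. *mt-Atp8* moved to 33.0 FPKM, but this value is not a usable level. The gene is 204 bases long, so very few bases remain, and it had 4, 2, and 3 counts. The order among these 6 depends on the choice of length. By gene length, *mt-Rnr1*, the lowest gene outside the stretch or only partly in it, was 6.16 times *mt-Co2*, the highest gene wholly in it. Their ranges over the 3 libraries did not overlap.

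**Figure D1:**
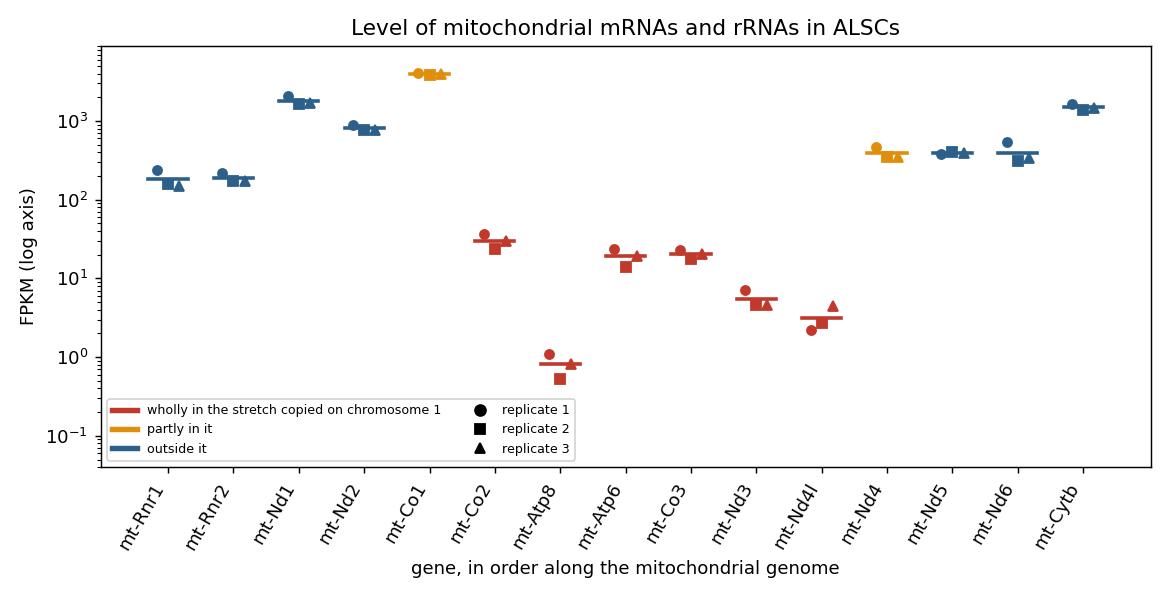
FPKM (log axis) of the 13 mRNAs and 2 rRNAs in gene order along the mitochondrial genome, with 1 point for each ALSC library and a bar at the mean of 3 libraries. The 6 mRNAs wholly in the stretch copied on chromosome 1 lie between 0.808 and 29.8 FPKM on average, and the other 9 genes between 183.6 and 3980 FPKM.

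*mt-Co1* had 115528, 112729, and 108917 counts in replicates 1, 2, and 3. Its mean level was 3980 ± 134 FPKM (SD, n = 3), the highest of the mitochondrial genes, and it held 49.3% ± 1.99 of their counts. The other complex IV genes were far lower. *mt-Co2*, which carries the site that accepts electrons from cytochrome c, had 448, 301, and 367 counts and 29.8 ± 6.35 FPKM. *mt-Co3*, the remaining core subunit, had 325, 260, and 289 counts and 20.4 ± 2.60 FPKM. The FPKM of *mt-Co1* was 137 ± 26.3 times that of *mt-Co2* and 197 ± 20.5 times that of *mt-Co3*. All 3 belong to the same enzyme, but only *mt-Co1* lies mostly outside the copied stretch.

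*mt-Cytb*, the cytochrome b of complex III and its only mitochondrial subunit, had 33964, 29301, and 29977 counts. Its level was 1487 ± 140 FPKM. For ATP synthase, *mt-Atp6*, which forms part of the proton channel, had 294, 176, and 239 counts and 19.0 ± 5.04 FPKM. *mt-Atp8*, a small membrane subunit, had 4, 2, and 3 counts. A count of 0 still allows up to 3 counts, and *mt-Atp8* was above this limit only in replicate 1. Its first bases lie upstream of *mt-Atp6*, and the genes share 43 bases, printed here in capitals from MT:7915-7981 on the plus strand.
mt-Atp8 into mt-Atp6: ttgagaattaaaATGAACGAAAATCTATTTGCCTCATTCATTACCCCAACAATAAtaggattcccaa
The counts of both genes depend on how reads in these shared bases were assigned, which is not given in the sources used here.

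Complex I has 7 mitochondrial subunits, and their levels ran from 3.14 to 1818 FPKM. *mt-Nd1*, which lies close to the quinone site, had 36522, 29542, and 29293 counts and 1818 ± 253 FPKM. *mt-Nd2*, one of the proton-pumping subunits, had 16904, 14804, and 14376 counts and 810 ± 78.3 FPKM. Their ranges did not overlap.

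*mt-Nd4*, a proton-pumping subunit whose first 876 bases are copied on chromosome 1, had 11529, 8983, and 8751 counts and 388 ± 64.9 FPKM. *mt-Nd5*, another such subunit, had 12670, 13715, and 12760 counts and 391 ± 9.24 FPKM. *mt-Nd6*, the one mRNA gene on the minus strand, had 5022, 3001, and 3209 counts and 396 ± 122 FPKM. By gene length, these 3 levels overlapped between libraries and were not apart beyond their spread. The order even changed, since the ratio of *mt-Nd5* to *mt-Nd6* was 0.718, 1.30, and 1.13 in replicates 1, 2, and 3. Another length, chosen after seeing the data, counted only stretches of 100 bases found in no nuclear transcript. With it *mt-Nd4* moved to 1064 FPKM, *mt-Nd5* to 413.6 FPKM, and *mt-Nd6* to 488.7 FPKM, so the likeness of *mt-Nd4* to the others depends on the length used. *mt-Nd5* and *mt-Nd6* overlap by 14 bases on opposite strands, and whether strand was used in counting is not given in the sources used here.

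The small membrane subunits *mt-Nd3* and *mt-Nd4l* were the lowest genes of complex I. *mt-Nd3* had 45, 30, and 29 counts and 5.46 ± 1.46 FPKM. *mt-Nd4l* had 12, 15, and 24 counts and 3.14 ± 1.19 FPKM, with the lowest count in replicate 1. *mt-Nd4l* runs into *mt-Nd4* over 7 bases, in capitals here from MT:10155-10185 on the plus strand.
mt-Nd4l into mt-Nd4: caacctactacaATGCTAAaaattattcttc
Over the libraries the FPKM of *mt-Nd4* was 207.1, 129.1, and 78.6 times that of *mt-Nd4l*, so this ratio varied widely on counts of 12 to 24.

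*mt-Rnr1*, the small rRNA, had 4157, 2835, and 2612 counts and 183.6 ± 49.5 FPKM. The large rRNA *mt-Rnr2* had 6328, 5093, and 4877 counts and 188 ± 28.7 FPKM. The levels of both overlapped, with a ratio of 0.966 ± 0.107. *mt-Nd1*, which follows them on the same strand, stood at 9.69 ± 0.212 times *mt-Rnr2*. The libraries were labelled as polyadenylated RNA, so this ratio describes only that fraction of the RNA.

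For 3 mRNAs the annotated coding sequence stops after a single T, with no full stop codon. The last 30 bases are shown with this T in capitals, from MT:9361-9390, MT:11515-11544, and MT:15259-15288 on the plus strand.
mt-Co3: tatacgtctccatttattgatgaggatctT
mt-Nd4: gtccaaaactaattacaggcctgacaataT
mt-Cytb: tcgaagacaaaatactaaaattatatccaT
Their levels were 20.4, 388, and 1487 FPKM, so these mRNAs were spread over the order of levels.

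How much of each gene also occurs in nuclear transcripts was counted as the share of its 100-base words with an exact match in a nuclear GENCODE M21 transcript, on either strand. The share was 99.9% for *mt-Co3*, 99.5% for *mt-Co2* and *mt-Atp6*, 98.5% for *mt-Nd4l*, and 97.6% for *mt-Nd3*. It was 60.8% for *mt-Nd4*, 30.8% for *mt-Co1*, and 3.19% for *mt-Nd2*. The share was 0 for *mt-Nd1*, *mt-Nd5*, *mt-Nd6*, *mt-Cytb*, *mt-Rnr1*, *mt-Rnr2*, and *mt-Atp8*. The 5 genes with at least 90% of their words shared were all low, and 6 of the 7 genes with a share of 0 had levels of at least 183.6 FPKM. The exception, *mt-Atp8*, lies inside the copied stretch, but its counterpart at chr1:24614609-24614812 lies mostly between annotated pseudogenes, and only annotated nuclear transcripts were compared.

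**Figure D2:**
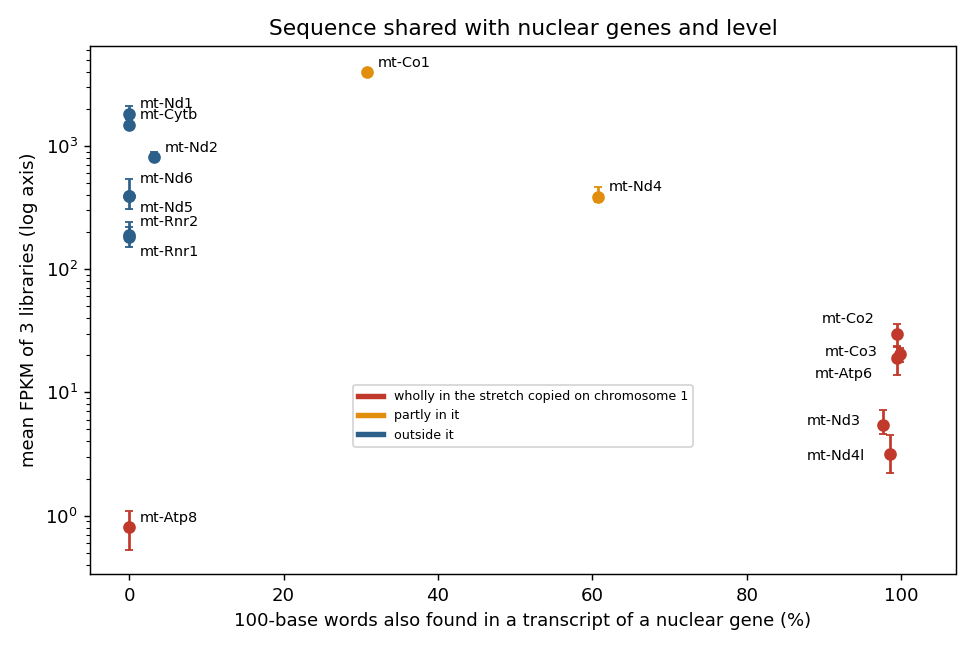
Mean FPKM over 3 ALSC libraries (log axis) against the percentage of each gene's 100-base words that occur in a nuclear transcript, 1 point for each mitochondrial mRNA or rRNA and bars from the lowest to the highest library. The 5 genes with 97.6% to 99.9% of words shared lie between 3.14 and 29.8 FPKM, and *mt-Atp8* lies low at a share of 0.

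Counts were also assigned to the pseudogenes of the stretch. Such counts do not show that the pseudogenes were transcribed. *Gm28438*, the copy of *mt-Nd3*, had 751, 462, and 421 counts, which was 94.3%, 93.9%, and 93.6% of the counts of the pair. In the reference this pair differs at 1 of 345 aligned bases. Which base the ALSCs carry there was not examined, so the split of counts within this pair is uncertain. *Gm10222*, the copy of *mt-Nd4l*, had 53, 48, and 42 counts, or 81.5%, 76.2%, and 63.6% of its pair. It aligned over 294 bases, below the 300 bases asked of a copy, and was included after its values were seen.

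The other complete copies took a smaller share. *Gm28437* had 344, 243, and 267 counts, or 51.4%, 48.3%, and 48.0% of its pair with *mt-Co3*. *Gm10925* had 274, 221, and 288 counts, or 48.2%, 55.7%, and 54.6% of its pair with *mt-Atp6*. *Gm28661* had 232, 112, and 172 counts, or 34.1%, 27.1%, and 31.9% of its pair with *mt-Co2*. *mt-Co2*, *mt-Atp6*, and *mt-Co3* were identical to their copies over 681, 678, and 783 bases.

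For the 2 genes that are copied in part the share was small. *Gm29216* had 150, 79, and 112 counts beside *mt-Co1*, and *Gm28439* had 37, 43, and 60 counts beside *mt-Nd4*, at most 0.681% of either pair. These copies align over 483 of the 1545 bases of *mt-Co1* and 876 of the 1378 bases of *mt-Nd4*. Counts from the rest of each gene enter the pair, so these shares are not comparable with those of the complete copies. A further copy of the whole of *mt-Co1* on chromosome 2, *Gm13340* at 97.6% identity, had 23, 9, and 29 counts. The counts of near-identical pairs are uncertain, because how reads with several matching positions were counted is not given in the sources used here.

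**Figure D3:**
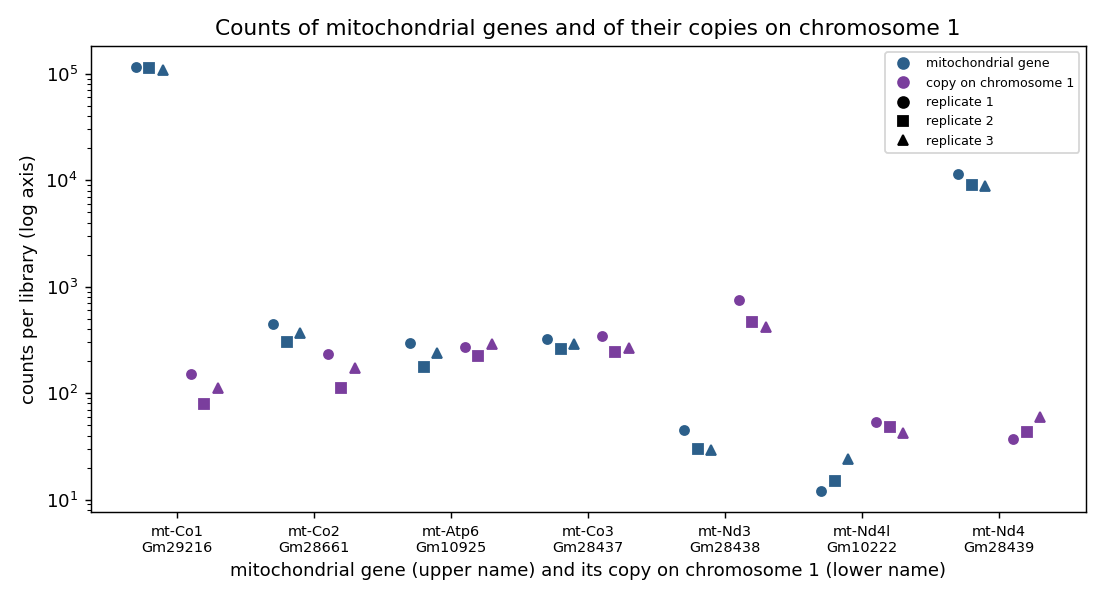
Counts (log axis) of 7 mitochondrial mRNAs and of their copies on chromosome 1, with 1 point for each of 3 ALSC libraries. *Gm28438* lies above *mt-Nd3* in every library (421 to 751 against 29 to 45 counts), and *mt-Co1* and *mt-Nd4* lie far above their partial copies.

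With the counts of each pair added, the level was 91.2 FPKM for *mt-Nd3*, 43.6 FPKM for *mt-Co2*, 40.3 FPKM for *mt-Co3*, 40.0 FPKM for *mt-Atp6*, and 11.9 FPKM for *mt-Nd4l*. All 5 stayed below *mt-Rnr1*, which was 2.01 times the highest of them, *mt-Nd3*. Reads that were left out of the table altogether cannot be seen in these counts, and their part in the low levels was not tested.

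Among the 22 tRNA genes, 59 to 75 bases long, 3 had at least 100 counts in every library. All 3 are coded on the minus strand, as are 8 of the 22. Whether strand was used in counting is not given, so their counts cannot be assigned to transcripts of that strand. All 22 genes are shorter than the fragments of 200 bases assumed above, so their FPKM is not comparable with that of longer genes. *mt-Tp*, the proline tRNA beside the control region, had 572, 512, and 470 counts and 423 ± 43.5 FPKM. *mt-Tc*, for cysteine, had 524, 340, and 390 counts and 347.2 ± 83.6 FPKM. *mt-Tn*, for asparagine, had 537, 334, and 356 counts and 315.8 ± 89.6 FPKM. Together they held 81.2%, 77.2%, and 83.7% of the tRNA counts, and replicate 1 was highest for each. Their sequences, from MT:15356-15422, MT:5192-5257, and MT:5089-5159 on the minus strand, are shown as the tRNA genes that were counted most.
mt-Tp: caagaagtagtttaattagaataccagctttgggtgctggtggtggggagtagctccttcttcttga
mt-Tc: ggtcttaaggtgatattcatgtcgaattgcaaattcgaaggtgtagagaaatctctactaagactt
mt-Tn: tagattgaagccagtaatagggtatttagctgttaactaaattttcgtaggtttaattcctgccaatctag
*mt-Tc* and *mt-Tn* are separated by 32 bases. No annotated gene follows *mt-Tp* before the end of the sequence.

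Of the other tRNAs, 6 had at least 10 counts in some library, the highest being *mt-Tl2*, for leucine, with 189, 158, and 86 counts. The remaining 13 had under 10 counts in every library, and 6 of these had 0 counts in all of them. The 5 tRNAs inside the copied stretch were all in this low group. *mt-Ts1*, *mt-Td*, *mt-Tk*, and *mt-Tg* had 0 counts in every library, and *mt-Tr* had 2, 0, and 0. For these 5 short genes the limit of 3 counts is 2.29 to 2.56 FPKM. The counts do not separate tRNAs from uncut precursors.

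To ask which genes varied between the libraries, each gene's counts were set against TMM-scaled library sizes in a chi-square test, adjusted by the Benjamini-Hochberg method over 16944 genes. The test covers counting error only, so a small p says that libraries differ and not that they differ more than cultures usually do. Of the 25 mitochondrial genes with at least 10 counts in total, 15 varied at an adjusted p below 0.05, against 47.2% of all genes tested. They were 9 of 12 mRNAs tested, both rRNAs, and 4 of 11 tRNAs. In all 15, replicate 1 was highest, while over all genes 22.2% varied with replicate 1 highest and 22.1% with replicate 1 lowest. High counts make small differences detectable, and among 4042 genes averaging 1000 counts or more 82.2% varied, 43.8% with replicate 1 highest and 35.9% with it lowest. Of the 9 mitochondrial mRNAs and rRNAs with such counts, 8 varied, each with replicate 1 highest.

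On the scale of log2(CPM + 1), *mt-Nd6* was higher in replicate 1 than in the mean of replicates 2 and 3 by 0.78, and *mt-Rnr1* by 0.70. *mt-Atp6* differed by 0.57, *mt-Co2* by 0.50, *mt-Nd4* by 0.47, *mt-Rnr2* by 0.44, and *mt-Nd1* by 0.40. *mt-Co3* differed by 0.32, *mt-Nd2* by 0.30, *mt-Cytb* by 0.29, and *mt-Co1* by 0.15. *mt-Nd5*, at 0.03 with an adjusted p of 0.0898 by the chi-square test, *mt-Nd3*, at 0.47 with 0.0874, and *mt-Nd4l*, at -0.27 with 0.171, did not pass. The call and direction of *mt-Nd5* depended on the scaling: its FPKM was lowest in replicate 1 (384.0 against 401.6 and 387.8), and it passed with unscaled totals, with totals over nuclear genes, and without replicate 2. Over all genes tested the median was 0.00. Without replicate 1, 7 of the 23 mitochondrial genes then tested varied, against 8.11% of all genes, and *mt-Nd2*, *mt-Nd4*, *mt-Rnr1*, *mt-Rnr2*, *mt-Co3*, *mt-Tp*, *mt-Tc*, and *mt-Tn* no longer passed. *mt-Co3* also failed to pass without replicate 2.

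Gene length moved with this difference in the whole library. In 20 groups of genes by length, the median log2 ratio of replicate 1 to replicates 2 and 3 ran from 0.39 at a median length of 685 bases to -0.51 at 15642 bases. Mitochondrial genes are short. Ratio and length were compared over the mitochondrial genes with at least 100 counts in every library. Over all 15, Pearson r was -0.60 and Spearman rho -0.61. Over the 12 mRNAs and rRNAs among them, r was -0.71 and rho -0.73. These values are given as a description across genes of the same 3 libraries. With the median of its length group taken off, the median ratio of the 13 mRNAs went from 0.32 to -0.039, and 6 of them stayed above 0. Over all genes tested, the median after this step was -0.037. *mt-Nd6* stayed higher in replicate 1 by 0.40 and *mt-Rnr1* by 0.31, while *mt-Co1* came to -0.18 and *mt-Nd5* to -0.24. With the trend on GC content also taken off, *mt-Nd6* was at 0.26 and *mt-Rnr1* at 0.18, and 3 mRNAs (*mt-Nd6*, *mt-Atp6*, and *mt-Nd4*) stayed above 0. The median of the 13 mRNAs was then -0.17, beside -0.040 over all genes tested.

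**Figure D4:**
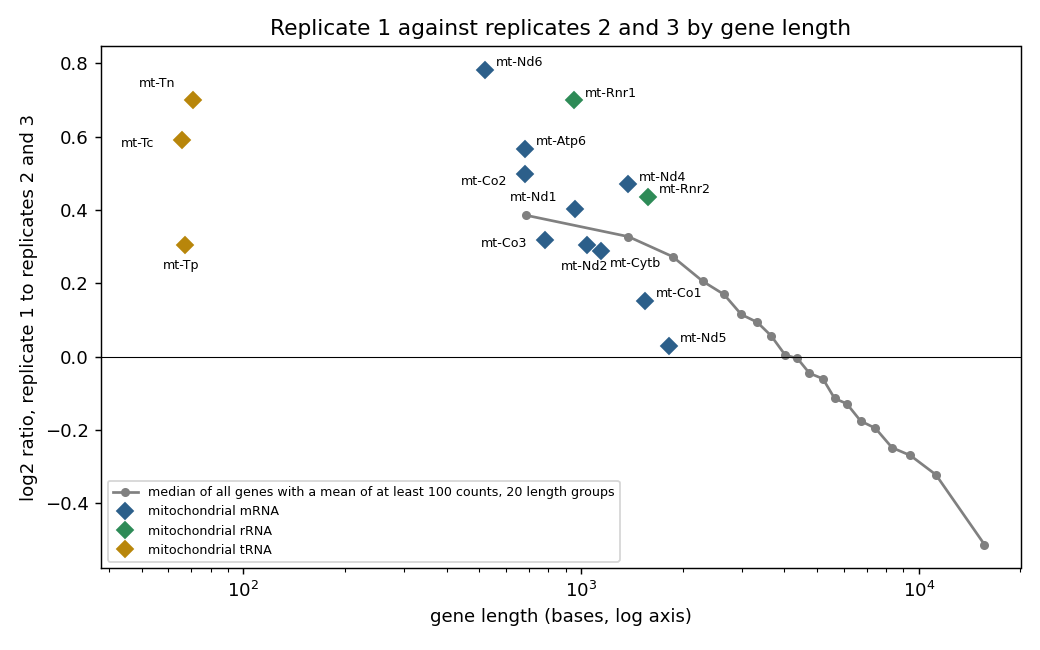
Log2 ratio of replicate 1 to the mean of replicates 2 and 3, on the scale of log2(CPM + 1), against gene length in bases (log axis) for mitochondrial genes with at least 100 counts in every library, with the median of all genes in 20 length groups as a grey line. *mt-Nd6* at 0.78 and *mt-Rnr1* at 0.70 lie above the line, and *mt-Co1* at 0.15 and *mt-Nd5* at 0.03 lie below it.

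The next lists hold nuclear genes that serve the mitochondrial genome. Of 17 genes for DNA maintenance and transcription, with a median of 7.69 FPKM, 10 varied between libraries (47.2% of all genes), 6 with replicate 1 highest, 3 with it lowest, and 1 with it between the others. The highest were *Mrpl12*, a ribosomal protein also linked to the polymerase, at 216.9 FPKM, and *Tfam*, which packs the DNA, at 28.7 FPKM. *Tefm*, an elongation factor, had 16.9 FPKM, *Ssbp1*, which binds single strands, 14.6 FPKM, and the helicase *Twnk* 11.6 FPKM.

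Of 25 genes for RNA processing, polyadenylation, and decay, 24 were tested (*Pde12* had 0 counts), and 11 varied, 8 with replicate 1 highest, 2 with it lowest, and 1 with it between, beside 47.2% of all genes varying and 22.2% with replicate 1 highest. Their median was 12.1 FPKM. *Hsd17b10*, a subunit of the enzyme that cuts the 5′ ends of tRNAs, was highest at 80.6 FPKM, followed by *Elac2*, which cuts the 3′ ends, at 29.9 FPKM. *Pnpt1*, an RNA-degrading enzyme, had 28.0 FPKM, *Ptcd2* 27.0 FPKM, and *Grsf1*, an RNA-granule protein, 24.0 FPKM.

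Nuclear subunits of the same complexes were compared per length. The median was 51.2 FPKM for 7 core subunits of complex I, 122.1 FPKM for 9 of complex III, 227.1 FPKM for 10 of complex IV, and 99.2 FPKM for 14 of complex V. *mt-Co1* was above every nuclear subunit of complex IV listed, of which *Cox7c* was highest at 446.1 FPKM, and *mt-Co2* and *mt-Co3* were below all 10, the lowest being *Cox5a* at 53.4 FPKM. *Ndufs3* of complex I had 0, 2, and 0 counts and was not tested. Of the complex I, III, IV, and V subunits tested, 5 of 6, 9 of 9, 10 of 10, and 13 of 14 varied, with replicate 1 highest in 5, 8, 10, and 13. Beside these counts, 47.2% of all genes varied, and 82.2% of those averaging 1000 counts or more, 43.8% with replicate 1 highest. The median log2 difference of replicate 1 was 0.30, 0.39, 0.45, and 0.35. The trend on gene length was not taken off these values, and no background of like length was used. Over all genes, that trend gave a median of 0.39 at 685 bases, 0.33 at 1380 bases, and -0.51 at 15642 bases.

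**Figure D5:**
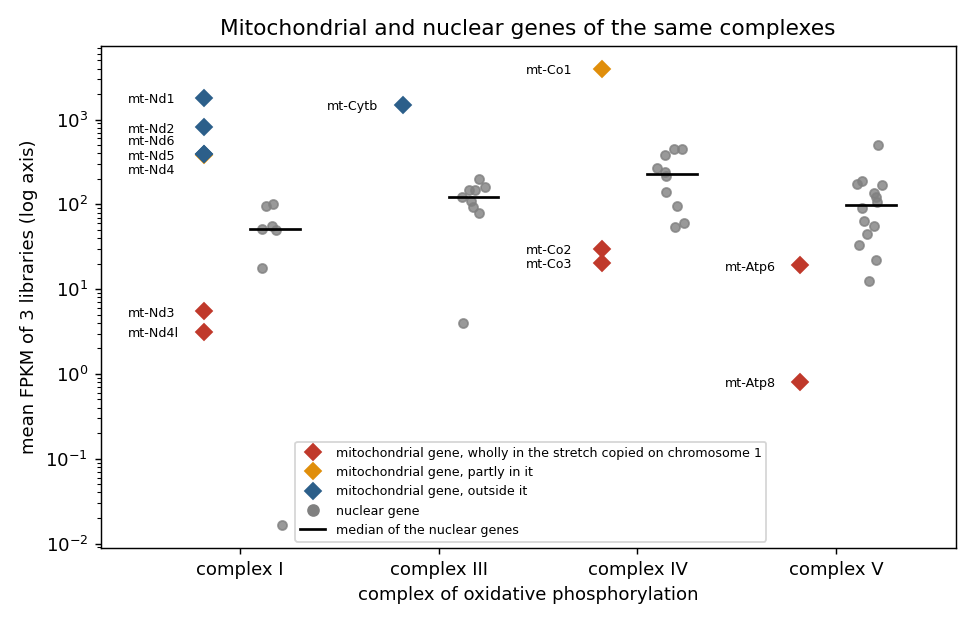
Mean FPKM over 3 ALSC libraries (log axis) of the mitochondrial and nuclear subunits of complexes I, III, IV, and V, 1 point for each gene, with a line at the median of the nuclear genes. Mitochondrial subunits of complex IV run from 20.4 to 3980 FPKM, and the nuclear ones from 53.4 to 446.1 FPKM.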

How the data were processed

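RNA-seq of 3 ALSC libraries was used. Per the labels, polyadenylated RNA was taken with Trizol and made into libraries with the Illumina TruSeq RNA kit. The paper instead names the Rneasy Mini Kit (Qiagen) for total RNA. HISAT2 2.0.5 is named in the submitters' processing notes. Reads were mapped to GRCm38. The counting program, its use of strand, and its handling of reads with several matching positions are not given in the sources used here. The authors deposited raw counts per gene, with no normalization. The 317 of 55738 rows without a gene name held 0.165% to 0.182% of the counts and were left out. Another 3 columns of counts match no sample of the series and were not used.

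FPKM was computed here from the count, the length in the table, and the total on named genes. The paper calls its RNA-seq replicates biological, and the labels do not say whether the libraries came from separate cultures. The p-values set the differences between these libraries against counting error only. They do not measure the size of the spread. The chi-square test used TMM sizes from edgeR 4.0.16, genes with at least 10 counts in total, and a threshold of 0.05. It was tried on simulated data with counting error and planted changes only. That trial held no other spread between libraries, so it does not show how the test behaves on real libraries. DESeq2 1.42.0 size factors were an alternative. Neighbours in the order of levels were called apart where their ranges did not overlap. Nuclear copies were sought with BLAST+ 2.17.0 (at least 95% identity over 300 bases) in GENCODE M21 transcripts, since no genome sequence was used here, so copies outside annotated transcripts were not searched. Sequences are of the reference and not of the ICR mitochondrial genome. Python 3.11.15, SciPy 1.17.1, and R 4.3.3 were used.

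The members, gene lists, and tests were chosen with earlier results of these data known. Values in every library were given for mRNAs, rRNAs, and tRNAs with at least 100 counts in every library, and the 5 genes of highest mean FPKM were named in each of the first 2 nuclear lists. *Atp5o* was left out because 2 rows carry its symbol.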

Additional observations from a re-analysis of the deposited data

How the results depend on the processing

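The genes inside the copied stretch stayed below the others under the alternatives tried for the levels, except that with words absent from nuclear transcripts as length only *mt-Atp8* of the 6 had a value. No paired analysis was possible because only 1 condition was used here. Counting only members with no overlap gave a mitochondrial share of 0.228%, since the 16 members that overlap another are then left out. The median level of mRNAs and rRNAs, 188 FPKM, was 516.5 as TPM and 231.9 with an effective length for fragments of 200 bases. The median log2 ratio of replicate 1 over the 13 mRNAs was 0.32, beside 0.00 over all genes tested. It was -0.039 once the trend on gene length was taken off, beside -0.037 over all genes tested. Once GC content was also taken into account it was -0.17, beside -0.040. Leaving out 1 library in turn gave a share of 1.20% to 1.28%, a median level of 171.4 to 199.6 FPKM, 7 to 17 varying genes (7 without replicate 1), and a median ratio of 0.29 to 0.43. With no filter on low counts, 16 of 31 mitochondrial genes varied, against 32.5% of all genes. Adding the counts of the chromosome 1 copies and taking only words absent from nuclear transcripts as length were chosen after seeing the data. Counts under 25, as for *mt-Nd4l* and *mt-Atp8*, limit the precision of the low genes.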
